A study of Homo sapiens with 6 samples.

Results

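The 7SK small nuclear ribonucleoprotein and the kinase it holds, P-TEFb, were followed through 8 genes in cells labelled Hep3B, a human hepatocellular carcinoma cell line. The 8 genes were taken by symbol from a table of 58243 genes, and all 8 were present and passed the filter on low counts. For RN7SK the row with the most counts was used. The genes were picked with their change between the groups known, so their changes are given as a description and carry no test. The tested cells had received si-SNHG17-1, a small interfering RNA against the long noncoding RNA SNHG17 (3 libraries), and the control cells had received the negative control siRNA si-NC (3 libraries). All libraries came from the same cell line in the same medium with serum, and the labels describe no other treatment and no time point. The comparison asks which RNAs differ between cells given si-SNHG17-1 and cells given si-NC. No other siRNA against SNHG17 is among these libraries. Effects of lowering SNHG17 and other effects of this siRNA therefore cannot be told apart.

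P-TEFb is the pairing of the kinase CDK9 with a cyclin T, CCNT1 or CCNT2. It phosphorylates the C-terminal domain of RNA polymerase II and the pausing factors NELF and DSIF, and so lets a polymerase paused near a promoter go on into the gene. Part of the P-TEFb of a cell is kept inactive in a particle built on the noncoding RNA 7SK, which RNA polymerase III makes. MEPCE caps the 5′ end of 7SK with a methyl group, LARP7 binds the 3′ end and stabilises the RNA, and HEXIM1 or HEXIM2 bound to 7SK inhibits CDK9.

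The annotated RN7SK transcript (ENSG00000283293.1, a small nuclear RNA gene) was 328 bases long and ran from 52995621 to 52995948 on the plus strand of chromosome 6 (GRCh38), with a GC content of 58.2%. Its start and end are shown because HEXIM proteins are known to bind the hairpin at the 5′ end, in a stem whose strands carry the letters GATC (GAUC in RNA), and LARP7 the 3′ end. Both lines come from the GENCODE 29 transcript, written as DNA on the plus strand, and capitals mark GATC in the first line. The second line was searched in the same way and has no capitals because GATC did not occur there.
RN7SK 5′ end, chr6:52995621-52995728: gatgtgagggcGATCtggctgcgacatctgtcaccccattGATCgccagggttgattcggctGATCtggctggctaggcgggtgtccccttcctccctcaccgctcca
RN7SK 3′ end, chr6:52995889-52995948: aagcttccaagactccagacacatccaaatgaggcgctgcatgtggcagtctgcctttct
GATC reads the same on both strands and occurred 3 times in the transcript, starting at bases 12, 41 and 63 counted from its first base, so all 3 lay in the printed 5′ end. Of 35116 RefSeq promoter windows of 300 bases, 41.7% held GATC at least once and 2.25% held it 3 times or more. These windows are promoter DNA and not transcripts, so the shares do not say how rare 3 matches are in such an RNA. A match of these letters is a description and not a measured binding site.

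SNHG17 itself, the target of the siRNA, had 307, 338 and 254 counts in the si-SNHG17-1 libraries, against 843, 953 and 948 in the si-NC libraries, a log2 fold change of −1.51 ± 0.12 (SE; adjusted p = 0.00101, edgeR's quasi-likelihood test). Library totals ran from 30207055 to 42271168 counts, and 3 counts, taken as the floor of detection, were worth 0.0712 to 0.0977 CPM (counts scaled to a common library total), which covers counting error only. The defining hepatocyte and Hep3B markers were at or near 0 in all 6 libraries: AFP had 0 to 0.214 CPM, ALB 0.159 to 0.811 CPM, and TTR and GPC3 were at 0, while the housekeeping gene GAPDH had 4182 to 5904 CPM. The cells are therefore named by their label only. In bulk RNA, fewer cells of a kind and less RNA per cell cannot be told apart.

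RN7SK was the member that differed most between the groups. It had 78, 98 and 86 counts in the si-SNHG17-1 libraries, against 553, 356 and 335 counts in the si-NC libraries. On the CPM scale, which corrects for library size by the TMM method, these were 2.04, 2.33 and 2.80 CPM in si-SNHG17-1 and 14.7, 8.53 and 8.45 CPM in si-NC. Every si-SNHG17-1 library lay below every si-NC library, and si-NC replicate 1 stood above the other si-NC libraries. The means were 2.39 ± 0.383 CPM in si-SNHG17-1 and 10.6 ± 3.57 CPM in si-NC (SD, n = 3 each). The log2 fold change was −2.14 ± 0.27 (SE; 95% interval −2.78 to −1.51), which is 4.42-fold lower in si-SNHG17-1. Within a group the highest library was 1.37 times the lowest in si-SNHG17-1 and 1.74 times in si-NC, so the difference between the groups was larger than the spread within either. Among all 18679 genes tested, 22 called genes fell by more than RN7SK, and its absolute change stood at percentile 99.1, where the median absolute log2 fold change was 0.28.

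**Figure D1:**
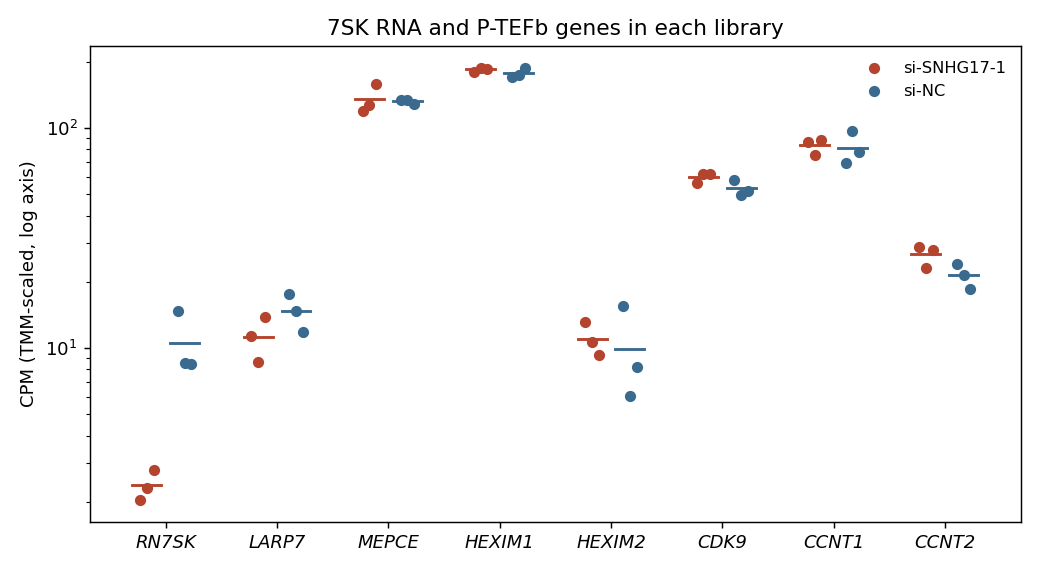
CPM of the 8 genes in each library (log axis), with si-SNHG17-1 in red to the left of si-NC in blue, points for libraries and bars for group means. RN7SK, at 2.04 to 2.80 CPM in si-SNHG17-1 and 8.45 to 14.7 CPM in si-NC, is the gene whose groups do not overlap, and the points of the other 7 genes overlap.

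The threshold for a call was an adjusted p under 0.05, with the adjustment over all genes tested. Of the 8 members 1 was called, RN7SK on the lower side, while 10.5% of all genes tested were called, 5.25% higher and 5.21% lower. The groups did not overlap in CPM for 1 of the 8 members, against 33.7% of all genes tested. Since the members were chosen on this contrast, nothing is read from these counts.

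The proteins that bind 7SK directly came next. LARP7 (chromosome 4, 112636964 to 112657592, plus strand) had 11.4, 8.62 and 13.8 CPM in si-SNHG17-1 and 17.6, 14.8 and 11.8 CPM in si-NC. The means were lower in si-SNHG17-1, at 11.3 ± 2.60 CPM against 14.8 ± 2.91 CPM in si-NC (SD, n = 3 each), but the highest si-SNHG17-1 library was above the lowest si-NC library. Its log2 fold change was −0.39 ± 0.22 (SE; 95% interval −0.91 to 0.12), an interval that spans a moderate fall and a small rise. MEPCE (chromosome 7, 100428790 to 100434126, plus strand) had 120, 127 and 158 CPM in si-SNHG17-1 and 134, 134 and 129 CPM in si-NC. The si-NC libraries were close to each other and the si-SNHG17-1 libraries lay on either side of them, with si-SNHG17-1 replicate 3 the highest. The log2 fold change of MEPCE was 0.03 ± 0.11 (SE; 95% interval −0.23 to 0.29), and it was −0.08 without si-SNHG17-1 replicate 3.

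The inhibitors HEXIM1 and HEXIM2 are neighbours on the plus strand of chromosome 17, at 45148502 to 45152101 and 45160700 to 45170040. HEXIM1 had 179, 188 and 186 CPM in si-SNHG17-1 and 170, 175 and 188 CPM in si-NC. The groups overlapped and the libraries of each group lay close together, and the log2 fold change was 0.05 ± 0.07 (SE; 95% interval −0.11 to 0.22), the narrowest interval of the 8 genes. HEXIM2 had 13.1, 10.7 and 9.31 CPM in si-SNHG17-1 and 15.5, 6.06 and 8.25 CPM in si-NC. Here the si-NC libraries enclosed all si-SNHG17-1 libraries, the highest si-NC library being 2.56 times the lowest, and the log2 fold change of 0.15 ± 0.34 (SE; 95% interval −0.63 to 0.93) had the widest interval of the 8 genes. It was −0.11 without si-NC replicate 2 and 0.62 without si-NC replicate 1.

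The span of an antisense gene, AC138150.1, crosses this locus, and it shares 520 exonic bases with HEXIM1 and none with HEXIM2. Its counts were 312, 318 and 268 in si-SNHG17-1 and 24, 334 and 314 in si-NC, and the low value fell in si-NC replicate 1, the library with the most HEXIM2 counts (584, against 253 and 327 in the other si-NC libraries). Summed with AC138150.1, HEXIM2 had 812, 767 and 554 counts in si-SNHG17-1 and 608, 587 and 641 counts in si-NC, and the log2 fold change of the sum was 0.31. The sum describes neighbouring rows and does not correct for shared exons. No source used here says whether the counting used strand. Reads from exons that a gene shares with an antisense partner therefore cannot be told apart.

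The kinase and its cyclins showed small differences with overlapping groups. CDK9 (chromosome 9, 127785679 to 127790787, plus strand) had 56.3, 61.7 and 61.5 CPM in si-SNHG17-1 and 58.0, 49.6 and 51.9 CPM in si-NC. Only si-NC replicate 1 reached into the si-SNHG17-1 range, and the log2 fold change was 0.17 ± 0.10 (SE; 95% interval −0.05 to 0.39). CCNT1 (chromosome 12, 48688458 to 48716998, minus strand) had 86.6, 75.3 and 88.3 CPM in si-SNHG17-1 and 69.2, 97.4 and 77.5 CPM in si-NC. The si-NC libraries spread over a wider range than the si-SNHG17-1 libraries and enclosed them, with a log2 fold change of 0.04 ± 0.14 (SE; 95% interval −0.28 to 0.36) that was −0.07 without si-NC replicate 1. CCNT2 (chromosome 2, 134918235 to 134959342, plus strand) had 28.9, 23.1 and 27.9 CPM in si-SNHG17-1 and 24.1, 21.5 and 18.6 CPM in si-NC. The lowest si-SNHG17-1 library was below the highest si-NC library, and the log2 fold change was 0.31 ± 0.15 (SE; 95% interval −0.03 to 0.66), the largest positive value among the members.

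An antisense gene that shares 148 exonic bases with CCNT2, CCNT2-AS1, was low but did not overlap between the groups, with 50, 24 and 48 counts in si-SNHG17-1 and 12, 11 and 6 counts in si-NC. Its log2 fold change was 2.21 ± 0.58 (SE) and was not called (adjusted p = 0.0519, edgeR's quasi-likelihood test). This gene was picked out after its values were seen. The other overlaps of members were with ZGRF1 (32 exonic bases) and AC106864.1 (302 bases) at LARP7, with ZCWPW1 (203 bases) at MEPCE and with AC138150.2 (1026 bases) at HEXIM2. The rows of the microRNAs MIR3960 and MIR2861, which lie within CDK9, had 1 count in every library, so not every value need be a plain tally of reads.

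**Figure D2:**
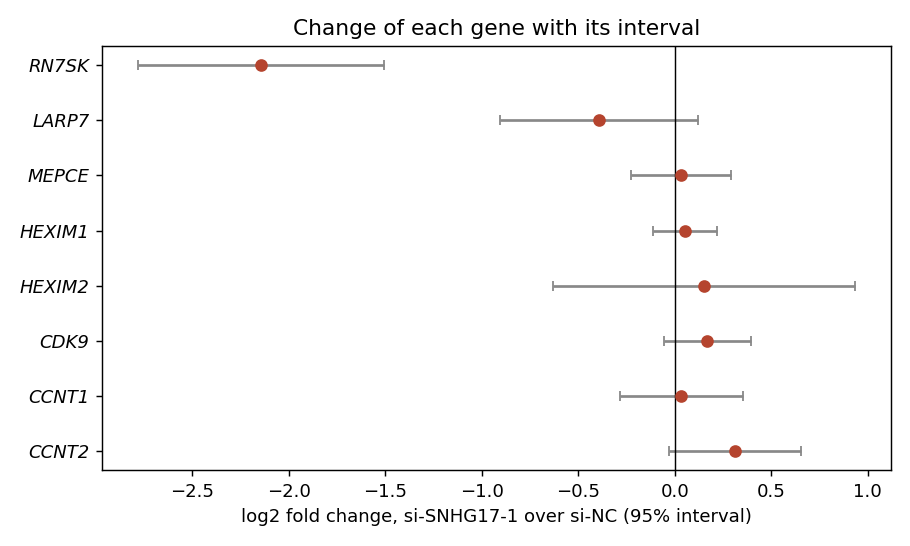
Log2 fold change, si-SNHG17-1 over si-NC, of each of the 8 genes with its 95% interval (n = 3 libraries each). The interval of RN7SK runs from −2.78 to −1.51 and those of the 7 protein-coding genes include 0.

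Levels of different genes were compared per kilobase of exon. In si-SNHG17-1, HEXIM1 was the highest at 51.2 ± 1.22 CPM per kb, followed by MEPCE at 39.5 ± 6.00, CDK9 at 19.9 ± 1.01, CCNT1 at 11.3 ± 0.959, RN7SK at 7.28 ± 1.17, HEXIM2 at 5.41 ± 0.938, CCNT2 at 2.93 ± 0.337 and LARP7 at 2.76 ± 0.636 CPM per kb (SD, n = 3). RN7SK overlapped HEXIM2 there, and CCNT2 overlapped LARP7. In si-NC, HEXIM1 was again the highest at 49.3 ± 2.65 CPM per kb, followed by MEPCE at 38.6 ± 0.845, RN7SK at 32.2 ± 10.9, CDK9 at 17.7 ± 1.45, CCNT1 at 11.0 ± 1.96, HEXIM2 at 4.87 ± 2.42, LARP7 at 3.61 ± 0.713 and CCNT2 at 2.36 ± 0.302 CPM per kb (SD, n = 3). RN7SK overlapped MEPCE there, HEXIM2 overlapped LARP7, and LARP7 and CCNT2 did not overlap. RN7SK thus stood below CDK9 and CCNT1 in si-SNHG17-1 and above them in si-NC, with 6.22, 7.09 and 8.54 CPM per kb in si-SNHG17-1 and 44.7, 26.0 and 25.8 CPM per kb in si-NC. 7SK ends without a poly(A) tail and is known as one of the most abundant small RNAs of human cells, so its place below HEXIM1 and MEPCE is a place in these libraries and not in the cell.

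**Figure D3:**
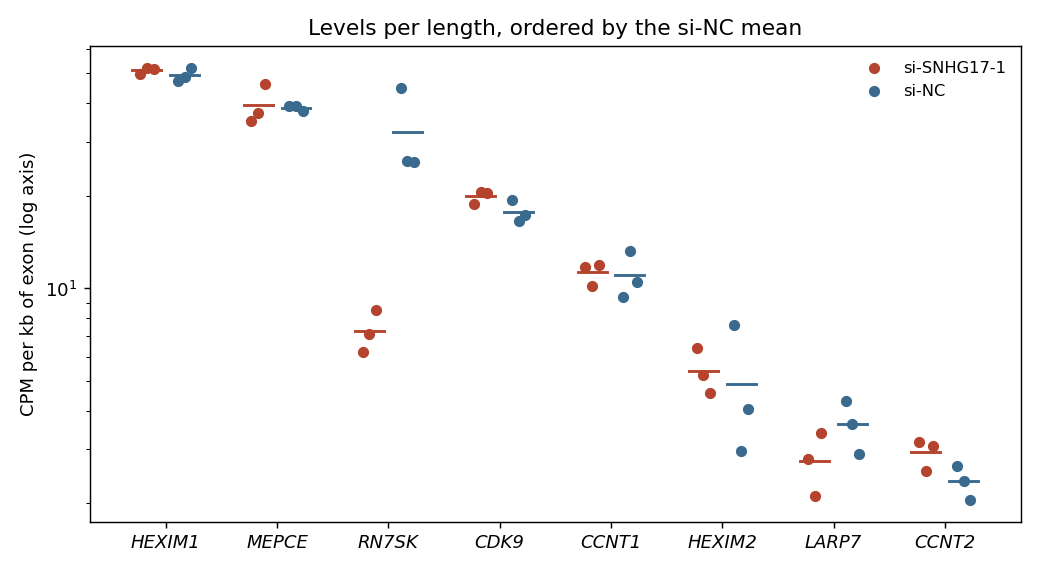
CPM per kilobase of exon (log axis) of the 8 genes in each library, ordered by the si-NC mean, with si-SNHG17-1 in red to the left of si-NC in blue and bars for group means. RN7SK lies between CCNT1 and HEXIM2 in si-SNHG17-1 (7.28 CPM per kb) and between MEPCE and CDK9 in si-NC (32.2 CPM per kb).

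The balance between paralogs, within the inhibitors and within the cyclins, overlapped between the groups. Per length, HEXIM1 made up 88.6%, 90.9% and 91.9% of the sum of HEXIM1 and HEXIM2 in si-SNHG17-1 and 86.1%, 94.2% and 92.8% in si-NC. The si-NC libraries enclosed the others, and the means differed by −0.600 percentage points. CCNT1 made up 78.7%, 80.0% and 79.6% of the sum of CCNT1 and CCNT2 in si-SNHG17-1 and 77.9%, 84.8% and 83.6% in si-NC. The means were 79.4% ± 0.672 in si-SNHG17-1 and 82.1% ± 3.68 in si-NC (SD, n = 3 each), a difference of −2.69 percentage points that was within the SD of the si-NC libraries.

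Near-identical copies of 7SK make its count uncertain, and they were examined next. The genome holds many RN7SKP pseudogenes, of which 293 were rows of the table and 34 had any counts. Summed over these rows there were 26, 75 and 67 counts in si-SNHG17-1 and 169, 81 and 115 counts in si-NC. The highest si-SNHG17-1 sum on the CPM scale, 2.18 CPM, lay above the lowest si-NC sum of 1.94 CPM, so the pseudogene sums overlapped where RN7SK did not. RN7SK held 75.0%, 56.6% and 56.2% of all counts of the 7SK family in si-SNHG17-1 and 75.9%, 81.1% and 74.3% in si-NC. With all rows named RN7SK or RN7SKP added together, the family was 3.47-fold lower in si-SNHG17-1 (log2 fold change −1.80). RN7SKP269, the pseudogene row with the most counts and the only one tested, had 0.0523, 0.119 and 0.488 CPM in si-SNHG17-1 and 0.425, 0.311 and 0.353 CPM in si-NC, with overlapping groups and a log2 fold change of −0.75 ± 0.85 (SE; adjusted p = 0.640, edgeR's quasi-likelihood test). RN7SKP97 had the next most counts. A further row with the symbol 7SK covers the same 328 bases as RN7SK and was at 0 in every library.

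The more abundant of the other RNAs that end without a poly(A) tail also had lower means in si-SNHG17-1. The labels give total RNA as the molecule and standard Illumina libraries, and the sample descriptions contain the word mRNA, but no source used here says whether tailed RNA was selected. The 2 main copies of the signal recognition particle RNA, RN7SL1 and RN7SL2, are made by RNA polymerase III as 7SK is. RN7SL1 had 1.31, 1.35 and 1.53 CPM in si-SNHG17-1 and 4.99, 2.01 and 1.69 CPM in si-NC, without overlap (log2 fold change −1.05 ± 0.43 SE; adjusted p = 0.171, edgeR's quasi-likelihood test). RN7SL2 had 2.56, 2.23 and 2.64 CPM in si-SNHG17-1 and 6.32, 2.63 and 1.61 CPM in si-NC, and its groups overlapped (log2 fold change −0.51 ± 0.47 SE; adjusted p = 0.552, edgeR's quasi-likelihood test). si-NC replicate 1 was the highest library for RN7SK, RN7SL1, RN7SL2, RMRP and RPPH1 alike, and without it the log2 fold change was −1.83 for RN7SK and 0.22 for RN7SL2.

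The smallest of the ribosomal RNAs cut from the RNA polymerase I transcript was listed in 4 near-identical rows, whose symbols begin with RNA5-8SN, and 2 of them were called lower in si-SNHG17-1. RNA5-8SN4 had a log2 fold change of −1.29 ± 0.33 (SE; adjusted p = 0.0489) and one RNA5-8SN5 row had a change of −1.35 ± 0.33 (SE; adjusted p = 0.0421), both by edgeR's quasi-likelihood test. Summed over the 4 rows there were 3.53, 4.08 and 4.07 CPM in si-SNHG17-1 and 13.7, 5.94 and 9.15 CPM in si-NC. All si-SNHG17-1 sums lay below all si-NC sums, 2.34-fold lower, and si-NC replicate 1 was again the highest. These rows were looked at after the values of RN7SK were known.

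RN7SK was therefore also set against these RNAs within each library. RN7SK had 0.527, 0.649 and 0.672 counts per count of RN7SL1 and RN7SL2 together in si-SNHG17-1 and 1.30, 1.84 and 2.56 in si-NC. The ratios did not overlap, the lowest in si-NC being 1.93 times the highest in si-SNHG17-1, and the log2 difference was −1.58, or 2.98-fold lower in si-SNHG17-1. Against the summed RNA5-8SN rows, RN7SK had 0.578, 0.570 and 0.688 counts per count in si-SNHG17-1 and 1.07, 1.44 and 0.923 in si-NC. These did not overlap either, the lowest in si-NC being 1.34 times the highest in si-SNHG17-1, and the log2 difference was −0.88, or 1.84-fold lower. Without si-NC replicate 1 the log2 difference was −1.82 relative to RN7SL1 and RN7SL2, against −1.83 for RN7SK on the library scale, and −0.92 relative to the RNA5-8SN rows. The smaller difference relative to RN7SL1 and RN7SL2 thus rested on si-NC replicate 1, while that relative to the RNA5-8SN rows was present with and without it. The part that the carry-over of untailed RNA had in it was not tested.

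**Figure D4:**
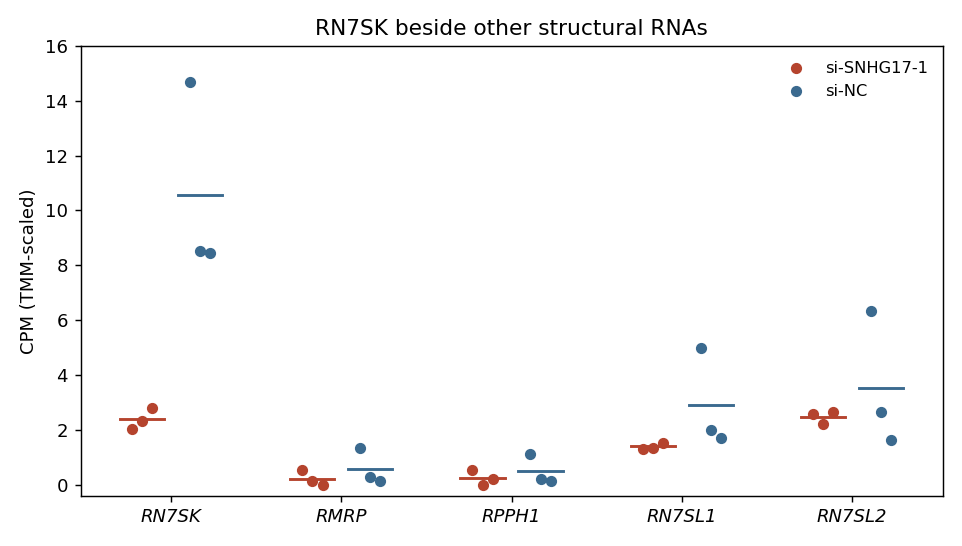
CPM (linear axis) of RN7SK, the RNase MRP RNA RMRP, the RNase P RNA RPPH1 and the signal recognition particle RNAs RN7SL1 and RN7SL2 in each library, with si-SNHG17-1 in red to the left of si-NC in blue and bars for group means. si-NC replicate 1, the left point of each blue group, is the highest library in all 5, and RN7SK at 2.04 to 2.80 CPM in si-SNHG17-1 and 8.45 to 14.7 CPM in si-NC has the widest gap between groups.

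The rest of the structural RNAs were too low to follow. Of 36 listed (Y RNAs, vault RNAs, spliceosomal snRNAs, TERC and others), 35 matched a row, 14 were at 0 in every library and 28 had at most 10 counts in any library. The 4 that could be tested were RN7SL1, RN7SL2, RMRP and SNORA73B. None was called (0 higher, 0 lower), and their median log2 fold change was −0.87, against −0.00 over all genes tested. Over all 109 tested genes annotated as small RNAs, 2 were called higher and 6 lower, RN7SK included, with a median of −0.08. Over all genes tested, 5.25% were called higher and 5.21% lower, so nothing is read from these counts. Besides RN7SK and the RNA5-8SN rows, those called lower were H19_1, H19_2 and TTC28-AS1_2, short rows named for the long noncoding RNAs H19 and TTC28-AS1. Those called higher were SNORA1 and DLEU2_6.

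As a description of its pattern, the genes most like RN7SK over the 6 libraries, among tested genes with a mean of at least 5 CPM, were PRKCA (Pearson r = 0.997), DOPEY2 (0.997), MYO1E (0.996), TARS (0.996) and MRPS25 (0.996). Their own log2 fold changes were −0.38, −0.57, −0.48, −0.46 and −0.21, all smaller in size than that of RN7SK. The 6 points share library depth and fall into 2 groups, and genes were ranked by this very measure, so high values were bound to be found.

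The genes that act on or around P-TEFb were then described through 9 lists with 121 genes, of which 87 were tested. Of these, 5 were called higher and 6 lower, or 12.6%, close to the 10.5% of all genes tested. The lists were drawn up with earlier results of these data known. The super elongation complex, which brings P-TEFb to active genes, had 9 tested genes with 0 called higher and 1 lower, and a median log2 fold change of −0.00. The called gene was ELL2, an elongation factor of the super elongation complex, with 137 ± 2.63 CPM in si-SNHG17-1 and 189 ± 12.8 CPM in si-NC (SD, n = 3 each), a log2 fold change of −0.47 ± 0.08 (SE; adjusted p = 0.0109, edgeR's quasi-likelihood test).

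The pausing and elongation factors, among them the P-TEFb targets NELF and DSIF, gave no call. The 14 genes of NELF, DSIF, the PAF1 complex and their partners had a median log2 fold change of −0.00, the same to 2 decimals as that of all genes tested, with values from −0.49 to 0.31. SUPT6H, the most abundant of them, had 226 CPM in si-SNHG17-1 and 222 CPM in si-NC on average. The list of other kinases that act on the polymerase C-terminal domain, with their cyclins and the partner protein MNAT1, had 9 genes. It included 1 called higher, CDK19, a Mediator kinase (34.0 ± 2.66 CPM in si-SNHG17-1, 24.4 ± 2.25 CPM in si-NC, SD, n = 3 each). CCNH, the cyclin of CDK7 in TFIIH, was the 1 called lower (32.4 ± 4.93 CPM in si-SNHG17-1, 48.3 ± 3.38 CPM in si-NC, SD, n = 3 each). On the opposite strand, RASA1 overlaps 771 of its exonic bases, with 548, 704 and 554 counts in si-SNHG17-1 and 1039, 1167 and 875 in si-NC. The log2 fold changes of CDK19 and CCNH were 0.48 ± 0.12 and −0.58 ± 0.13 (SE), with adjusted p-values of 0.0463 and 0.0356 by edgeR's quasi-likelihood test. The median of these 9 was −0.13.

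Among 10 factors known to release P-TEFb from 7SK or to take the place of HEXIM on the RNA, 1 was called higher and 2 lower, with a median log2 fold change of −0.08. PPM1G, a phosphatase that releases P-TEFb by acting on CDK9, had 164, 171 and 159 CPM in si-SNHG17-1 and 313, 303 and 302 CPM in si-NC. The libraries of each group were close together and far from those of the other, 1.86-fold lower in si-SNHG17-1 (log2 fold change −0.89 ± 0.06 SE; adjusted p = 0.000648, edgeR's quasi-likelihood test). DDX21, an RNA helicase that frees P-TEFb from 7SK and also works in ribosome assembly, had 401, 354 and 386 CPM in si-SNHG17-1 and 665, 739 and 624 CPM in si-NC. The groups did not overlap, and DDX21 was 1.78-fold lower in si-SNHG17-1 (log2 fold change −0.83 ± 0.08 SE; adjusted p = 0.00244, edgeR's quasi-likelihood test). HNRNPA1, which binds the 7SK that has lost P-TEFb, was the 1 called higher, with 793 ± 8.47 CPM in si-SNHG17-1 and 652 ± 40.9 CPM in si-NC (SD, n = 3 each; log2 fold change 0.28 ± 0.06 SE; adjusted p = 0.0313, edgeR's quasi-likelihood test). HNRNPA2B1, HNRNPR and SYNCRIP, of the same list, were not called, with log2 fold changes of −0.26, −0.15 and 0.09.

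For the machinery that transcribes 7SK, RNA polymerase III with SNAPc and its initiation factors, 0 of 23 tested genes were called higher and 2 lower, with a median log2 fold change of −0.09. POLR1C, a subunit shared by RNA polymerases I and III, had 36.1 ± 2.58 CPM in si-SNHG17-1 and 65.1 ± 4.22 CPM in si-NC (SD, n = 3 each), a log2 fold change of −0.85 ± 0.10 (SE; adjusted p = 0.00387, edgeR's quasi-likelihood test). Its exons overlap those of XPO5, YIPF3, LRRC73 and AL355802.3, all on the opposite strand. In si-SNHG17-1, XPO5 had 6721, 7270 and 5624 counts, YIPF3 2412, 2652 and 1889, LRRC73 224, 284 and 234, and AL355802.3 31, 16 and 16. In si-NC these were 9551, 9848 and 8253, 2388, 2686 and 2706, 286, 352 and 383, and 99, 88 and 68. The part that reads of these genes had in the POLR1C count was not tested. POLR3A, the largest subunit of RNA polymerase III, had 85.3 ± 1.87 CPM in si-SNHG17-1 and 106 ± 2.03 CPM in si-NC (SD, n = 3 each), a log2 fold change of −0.31 ± 0.07 (SE; adjusted p = 0.0337, edgeR's quasi-likelihood test). The 6 other La and La-related proteins, relatives of LARP7, had no call and a median of −0.03, and the most abundant, LARP1, averaged 445 CPM in both groups.

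Other nuclear and short-lived RNAs were taken beside these. Of the nuclear long noncoding RNAs, MALAT1 (157 CPM in si-SNHG17-1, 179 CPM in si-NC) and NEAT1, the scaffold of paraspeckles (626 ± 93.4 CPM in si-SNHG17-1, 471 ± 33.1 CPM in si-NC, SD, n = 3 each), were tested and not called, with an adjusted p of 0.0587 for NEAT1 by edgeR's quasi-likelihood test. Immediate early genes make short-lived transcripts, and RNA polymerase II is paused near their promoters before induction. Of 10 such genes, 3 were called higher and 0 lower, with a median log2 fold change of 0.36. Over all genes tested, 5.25% were called higher. Of the 7 not called, IER2 and MYC had negative log2 fold changes (−0.89 and −0.65) and the rest positive ones. Both had an outlying library. IER2 had 66.4, 52.2 and 28.2 CPM in si-SNHG17-1 and 206, 26.3 and 40.9 CPM in si-NC. It also shares 946 exonic bases with AC011446.2 on the opposite strand. MYC had 144, 155 and 14.2 CPM in si-SNHG17-1 and 136, 179 and 178 CPM in si-NC. JUN had 148 ± 6.97 CPM in si-SNHG17-1 and 76.7 ± 12.5 CPM in si-NC (SD, n = 3 each; log2 fold change 0.95 ± 0.12 SE; adjusted p = 0.00513, edgeR's quasi-likelihood test). IER3 had 561 ± 35.6 CPM in si-SNHG17-1 and 386 ± 23.2 CPM in si-NC (SD, n = 3 each; log2 fold change 0.54 ± 0.07 SE; adjusted p = 0.00653, edgeR's quasi-likelihood test). EGR1 had 13.3 ± 1.45 CPM in si-SNHG17-1 and 7.41 ± 0.940 CPM in si-NC (SD, n = 3 each; log2 fold change 0.85 ± 0.16 SE; adjusted p = 0.0193, edgeR's quasi-likelihood test). PPM1G, DDX21, POLR1C, JUN and IER3 kept their call in all 6 fits that left out a library. ELL2, CDK19, CCNH, HNRNPA1, POLR3A and EGR1 each lost it in at least 3 of those fits.

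**Figure D5:**
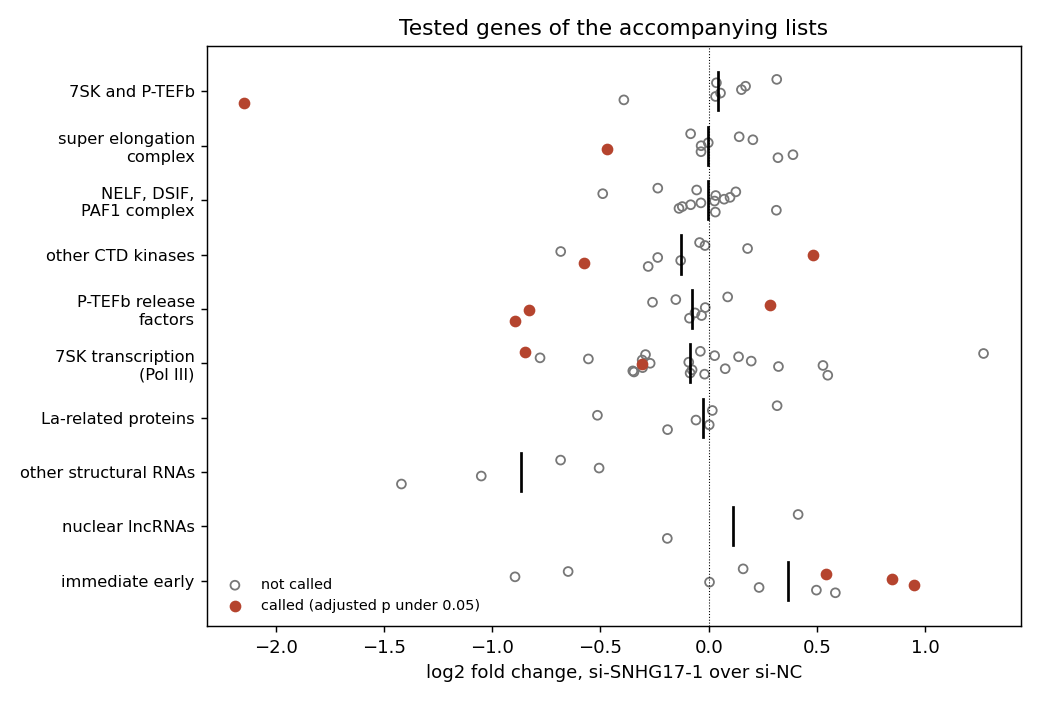
Log2 fold change, si-SNHG17-1 over si-NC, of every tested gene of the 8 members (top row) and of the 9 accompanying lists, filled red where called and open grey where not, with a black bar for the median of each row. RN7SK at −2.14 lies farthest to the left, and the 5 genes called higher are CDK19, HNRNPA1, JUN, IER3 and EGR1.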

How the data were processed

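RNA sequencing of 6 libraries, 3 per group, was analysed from a deposited table that held counts for each gene, as whole numbers without normalisation by the authors. Reads were aligned with HISAT2 to GRCh38, per the submitters' processing notes. No source used here gives the counting program, the annotation release or the use of strand. Groups and replicate numbers came from the sample titles. Nothing in the labels says that replicates came from separate cultures, and p-values then reflect the spread between libraries alone, which could be technical.

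Of 58243 genes, 18679 passed filterByExpr (minimum count 10, minimum total 15) and were tested with edgeR 4.0.16 in R 4.3.3 (TMM scaling, quasi-likelihood F test, Benjamini-Hochberg adjustment over all genes tested, called under 0.05). SE is the absolute log2 fold change over the square root of F. Exonic lengths, gene types and sequences came from GENCODE 29, in which 57980 of the identifiers were found. Where a symbol had several rows, the row with the most counts was used. Scripts were tested on simulated counts with known changes. Libraries within groups differed by far more than sampling noise, at 25.0 to 50.9 times the chi-square expected from counting.

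The members and lists were chosen with earlier results of these data known, and 1 listed gene is not reported here. Named genes were all members, up to 3 called genes per direction of each list with the smallest adjusted p or, with none called, its most abundant gene, the 2 RN7SKP rows with the most counts and the 5 genes most correlated with RN7SK on log2 CPM (prior count 2). Other genes named were added after their values were seen. Alternatives were a replicate block, no filter, a filter of 1 CPM in 3 libraries, library totals alone, median-of-ratios scaling, DESeq2 1.42.0, limma-voom (limma 3.58.1), each library left out, and, added after the data were seen, ratios of RN7SK to RN7SL and to the RNA5-8SN rows, also without si-NC replicate 1, and a sum of HEXIM2 with AC138150.1, an antisense gene whose exons overlap HEXIM1.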

Additional observations from a re-analysis of the deposited data

How the results depend on the processing

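RN7SK remained lower in si-SNHG17-1 under every alternative run, with a log2 fold change of −2.28 to −1.83 when each library was left out. It moved to −1.58 relative to RN7SL1 and RN7SL2 and to −0.88 relative to the RNA5-8SN rows (−1.82 and −0.92 without si-NC replicate 1), alternatives chosen after seeing the data. None of the 92 alternative values of the 7 protein-coding members was called, and 3 changed sign: with a library left out, CCNT1 ran from −0.070 (without si-NC replicate 1) to 0.18, HEXIM2 from −0.11 (without si-NC replicate 2) to 0.62 and MEPCE from −0.083 (without si-SNHG17-1 replicate 3) to 0.12. RN7SL2 ran from −0.85 to 0.22 (without si-NC replicate 1), SUPT6H from −0.042 (without si-NC replicate 3) to 0.096, and LARP1 from −0.0063 (without si-NC replicate 3; also −5.79e-06 without si-NC replicate 2) to 0.021. The cause was not tested.

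Over all genes, 980 were called higher and 974 lower. Leaving out a library gave 313 to 694 higher and 264 to 705 lower. Without an si-NC library these were 527 to 694 higher and 531 to 705 lower. Without an si-SNHG17-1 library they were 313 to 402 higher and 264 to 366 lower. With no filter, where more genes were tested, 670 were higher and 627 lower, 3 and 5 of them in the lists. Why these counts differed was not tested. DESeq2 called 1414 higher and 1375 lower, 9 and 9 of them in the lists. In the lists, 5 were called higher and 6 lower, and leaving out a library gave 2 to 4 higher and 3 to 6 lower. The share of HEXIM1 differed by −3.07 to 0.992 percentage points and that of CCNT1 by −4.80 to −1.36 in these fits. NEAT1 was called with total counts (adjusted p = 0.0469), with the filter of 1 CPM (0.0440), by DESeq2 (0.0179) and without si-SNHG17-1 replicate 1 (0.0424), and in no other fit (0.0544 to 0.154).

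The labels do not say whether same-numbered libraries of the groups share more than a number. Their deviations from the group means correlated at −0.0172, −0.0367 and −0.0153 over all genes. These values cannot show whether a culture or batch was shared. With a replicate block 273 genes were called higher and 259 lower, 2 and 3 of them in the lists, and RN7SK was at −2.10. RN7SK rests on 78 to 98 counts in si-SNHG17-1, and most structural RNAs were too low for any statement.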
